A study of Mus musculus with 9 samples.

Results

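Mitochondrial ribosomal proteins are the nuclear-encoded protein subunits of the ribosome inside mitochondria. The genes examined here were the protein-coding genes whose official symbol is Mrpl (large subunit) or Mrps (small subunit) followed by a number. All 77 such genes, 48 Mrpl and 29 Mrps, had a mean level of 1 FPKM or more over the libraries, and none was lost to that minimum. FPKM is a count of sequenced fragments scaled to transcript length and library size. They are 77 of the 13514 genes tested and of the 25468 genes in the file. Their level was measured by bulk RNA sequencing of mouse hearts in 9 libraries. The groups were 3 libraries of wild-type hearts after a sham operation, 3 of wild-type hearts 1 day after acute myocardial infarction and 3 of wild-type hearts 7 days after it. The day on which sham hearts were taken, the animals' strain, sex and age, and the part of the heart that was sampled are not given in the labels, nor is it stated whether each library is a different animal. The p-values then rest only on the spread of libraries within groups. The test pools that spread over the 3 groups and moderates it across genes, and it may be technical. The series also concerns Hdc-/- hearts, which were not analysed here.

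The mitochondrial genome encodes a small set of respiratory chain subunits, the ribosomal RNAs and the transfer RNAs of the organelle. The proteins of the mitochondrial ribosome are made in the cytosol, imported and assembled on those ribosomal RNAs with the help of GTPases, methyltransferases and RNA-binding proteins. Cardiomyocytes are packed with mitochondria, and the ribosomes there make the hydrophobic core subunits of the complexes that produce ATP. Promoters of genes for mitochondrial proteins are known for binding sites of NRF1, of the ETS factor GABP and of YY1, and the coactivator encoded by Ppargc1a acts through such factors and through the oestrogen-related receptor encoded by Esrra.

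The 6 promoter windows below belong to members named in the results, and all 6 hold a match to the motifs searched. Mrps18a and Mrpl27 were among the largest falls, and Mrps21 is a highly expressed member. Mrps26 and Mrpl57 are members of the lowest level, and Mrpl17 was not called at either time. Named members whose windows hold no match, such as Mrpl47, are not shown. The 6 windows therefore do not stand for the members' windows as a whole. Each printed window runs 5′ to 3′ along the gene, from 250 bases before to 50 after the annotated start. It comes from RefSeq on GRCm38.p6. Capitals mark the letters GCGCANGCG (NRF1), CCGGAAG (the core of an ETS site, as bound by GABP) and AAGATGGCG (YY1), each searched on both strands, so that CTTCCGG is the ETS core and CGCCTGCGC an NRF1 match on the opposite strand.
Mrps18a (chr17:46110754-46111053, plus strand): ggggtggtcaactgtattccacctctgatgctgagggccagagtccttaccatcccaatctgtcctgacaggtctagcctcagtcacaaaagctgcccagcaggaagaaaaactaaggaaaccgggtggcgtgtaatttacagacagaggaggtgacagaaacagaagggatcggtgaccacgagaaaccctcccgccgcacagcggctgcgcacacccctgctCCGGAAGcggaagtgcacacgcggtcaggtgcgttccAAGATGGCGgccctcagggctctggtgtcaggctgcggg
Mrpl27 (chr11:94653541-94653840, plus strand): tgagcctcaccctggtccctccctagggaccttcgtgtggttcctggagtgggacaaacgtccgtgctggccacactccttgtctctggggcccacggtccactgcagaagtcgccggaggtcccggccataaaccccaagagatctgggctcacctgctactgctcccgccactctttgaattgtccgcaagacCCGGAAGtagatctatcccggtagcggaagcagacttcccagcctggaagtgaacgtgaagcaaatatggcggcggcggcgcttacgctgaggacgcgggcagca
Mrps21 (chr3:95871465-95871764, minus strand): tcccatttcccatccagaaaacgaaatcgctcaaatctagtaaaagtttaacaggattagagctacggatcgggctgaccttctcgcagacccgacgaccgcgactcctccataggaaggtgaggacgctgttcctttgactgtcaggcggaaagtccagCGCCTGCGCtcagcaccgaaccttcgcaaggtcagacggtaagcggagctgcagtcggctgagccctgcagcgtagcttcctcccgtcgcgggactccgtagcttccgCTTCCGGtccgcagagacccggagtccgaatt
Mrps26 (chr2:130563507-130563806, plus strand): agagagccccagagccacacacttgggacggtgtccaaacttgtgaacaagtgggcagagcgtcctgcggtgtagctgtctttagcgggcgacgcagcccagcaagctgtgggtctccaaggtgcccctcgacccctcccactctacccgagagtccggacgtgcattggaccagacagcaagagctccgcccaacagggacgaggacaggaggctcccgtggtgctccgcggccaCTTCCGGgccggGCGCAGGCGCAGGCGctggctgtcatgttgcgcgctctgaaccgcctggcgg
Mrpl57 (chr14:57825989-57826288, plus strand): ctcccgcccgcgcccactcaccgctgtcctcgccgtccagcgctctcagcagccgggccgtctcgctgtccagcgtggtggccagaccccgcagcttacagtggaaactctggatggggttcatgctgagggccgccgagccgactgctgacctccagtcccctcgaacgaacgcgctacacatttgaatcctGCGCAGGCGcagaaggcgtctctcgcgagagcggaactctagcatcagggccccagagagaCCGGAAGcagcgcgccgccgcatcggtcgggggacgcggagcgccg
Mrpl17 (chr7:105811038-105811337, minus strand): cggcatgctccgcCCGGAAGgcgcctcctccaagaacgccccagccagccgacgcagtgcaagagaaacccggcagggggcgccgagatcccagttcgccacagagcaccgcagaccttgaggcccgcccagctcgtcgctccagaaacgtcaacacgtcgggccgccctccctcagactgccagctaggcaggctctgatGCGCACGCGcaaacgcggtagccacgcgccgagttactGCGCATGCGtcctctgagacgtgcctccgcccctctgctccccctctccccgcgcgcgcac

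The Mrps18a window held an ETS match 26 bases before the start and a YY1 match 11 bases after it. The Mrps26 window held a pair of overlapping NRF1 matches at the start and an ETS match 14 bases before it. The Mrpl57 window had its NRF1 match 57 bases and the Mrps21 window 90 bases before the start. Mrpl17 had 2 NRF1 matches, 49 and 11 bases before the start. Of the 77 members, 68 matched the promoter table by gene, with 74 windows. An NRF1 match was found in 21.6% of those windows, beside 12.9% of the 12074 windows of tested genes and 6.25% of all 32851 windows. An ETS match was found in 33.8%, beside 16.7% and 8.86%, and a YY1 match in 10.8%, beside 2.84% and 1.403%. At least 1 of the 3 was found in 41 of the 74 windows (55.4%), beside 28.6% of the windows of tested genes. The E-box CACGTG was found in 9.46% of the members' windows and 9.72% of tested windows, and TATAAA in 6.76% and 7.46%. Median GC content was 58.5% in the members' windows and 60.7% in tested windows. A match is a run of letters and was not shown to be bound.

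After infarction the mitochondrial ribosomal protein genes were lower at both times. At day 1, 50 of 77 members (64.9%) were lower than sham and 0 were higher, by limma's moderated test at a Benjamini-Hochberg adjusted p under 0.05 over all 13514 genes. Over all genes tested, 14.7% were lower and 13.4% higher at that time. At day 7, 48 of 77 (62.3%) were lower and 0 higher, beside 17.3% lower and 15.7% higher of all genes. The median log2 fold change of the members was -0.48 at day 1 and -0.47 at day 7, and the medians of all genes were -0.01 and -0.02. Fold changes are of log2(FPKM + 1), which understates those of low genes. In all 3 day 1 libraries 64 members lay below every sham library, and in all 3 day 7 libraries 61 did, beside 25.1% and 28.8% of all genes. Exact permutation with 3 libraries a group reaches a two-sided p of 0.1 at best and is not used for single members. In tissue, fewer cells of a type and less RNA per cell cannot be told apart.

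Of the 77 members, 40 were lower at both times, 10 at day 1 alone, 8 at day 7 alone and 19 at neither. Both comparisons used the same 3 sham libraries. Between day 7 and day 1 no member passed (0 higher, 0 lower), beside 2.71% of all genes higher and 2.14% lower. An unadjusted p under 0.05 was found for 9 of the 77 members, beside 3132 of 13514 genes. The median difference was 0.05 on the log2 scale, and the day 7 mean lay above the day 1 mean for 43 members and below it for 34. Of all 13514 genes, 1770 had all 3 day 7 libraries above those of day 1 and 1901 had all 3 below. Among the members, Mrpl53, Mrpl36, Mrpl55 and Mrps23 had all 3 above, and Mrps12 and Mrps30 all 3 below. The lowest adjusted p among these 6, chosen after their values were seen, was 0.14, for Mrpl55.

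The calls depend on how the libraries are scaled. Summed over all genes, FPKM averaged 784444 in sham, 648821 at day 1 and 615263 at day 7, so the libraries had no common total. Rescaled to a common total (TPM), 19 members (24.7%) were lower at day 1 and 9 (11.7%) at day 7, beside 4.43% and 3.89% of all genes. Their medians were then -0.21 and -0.13, while those of all genes stood at 0.22 and 0.28. Relative to the median of all genes the members stood at -0.43 and -0.41 on that scale and at -0.47 and -0.45 without the rescaling. Over all genes, 47.7% of day 1 calls and 47.6% of day 7 calls were higher, and with TPM 80.0% and 87.7% were.

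**Figure D1:**
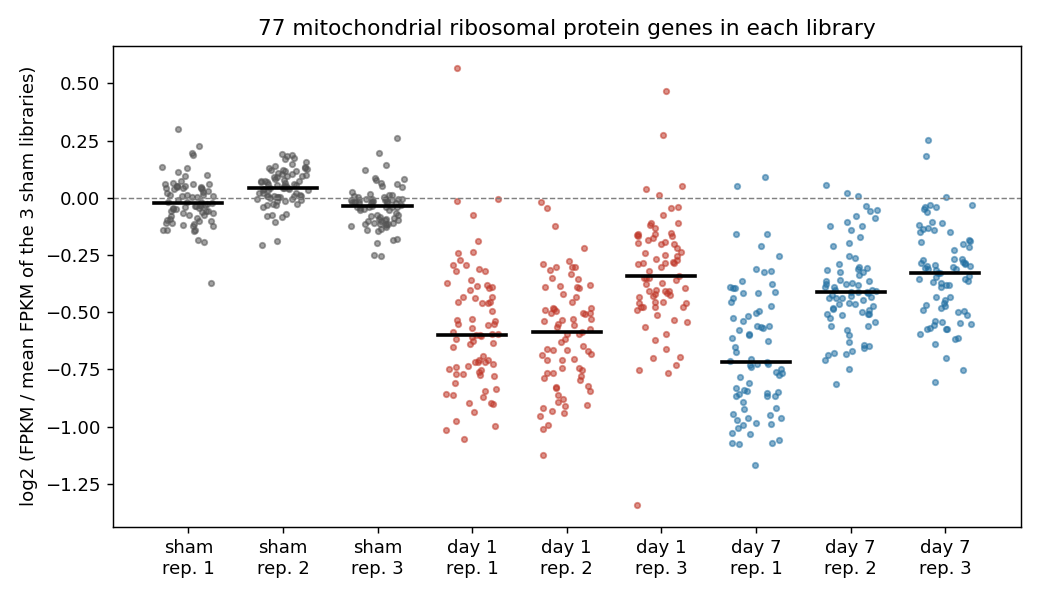
Log2 ratio of FPKM to the mean of the 3 sham libraries (y axis) for 77 genes in each of 9 libraries (x axis), 1 point a gene, with a black line at the median. Medians of the day 1 and day 7 libraries lie between -0.72 and -0.33, and those of sham between -0.04 and 0.04.

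The fall was not equal in the libraries of a group. The median member stood at -0.60 and -0.58 in day 1 replicates 1 and 2 and at -0.34 in day 1 replicate 3, on the log2 ratio to the sham mean. It stood at -0.72 in day 7 replicate 1 and at -0.41 and -0.33 in day 7 replicates 2 and 3. Day 1 replicate 3 was the highest library of its group for 69 of 77 members, and day 7 replicate 1 was the lowest for 69 of 77. Without day 1 replicate 2 the members lower at day 1 numbered 19, beside 5.89% of all genes. Without day 1 replicate 3 and day 7 replicate 1 they numbered 66, beside 19.4% of all genes. That pair was chosen after the data were seen, and it takes out the day 1 library with the smallest fall. Without sham replicate 1 and day 1 replicate 2 the count was 2, with a median of -0.44. Those 2 libraries were the ones with airway epithelium markers, whose sum over 4 genes was 201.5 and 1614 FPKM beside at most 16.7 FPKM elsewhere. In that fit 1.06% of all genes were called lower at day 1. At day 7 the count without a single library ran from 21 (without sham replicate 2, beside 7.62% of all genes) to 53 (without day 1 replicate 3, beside 19.4%).

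Summed over the 77 members, the level was 4104, 4241 and 4028 FPKM in the sham libraries, 2627, 2562 and 3253 FPKM at day 1 and 2578, 3111 and 3208 FPKM at day 7. Every infarct library lay below every sham library, by 31.8% at day 1 and 28.1% at day 7 in the means (4124 ± 108, 2814 ± 381 and 2966 ± 339 FPKM, SD, n = 3). The members made up 0.53%, 0.43% and 0.48% of all FPKM in the sham libraries, day 1 and day 7. The summed Mrps level was 51.9%, 52.7% and 50.3% of the summed Mrpl level.

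**Figure D2:**
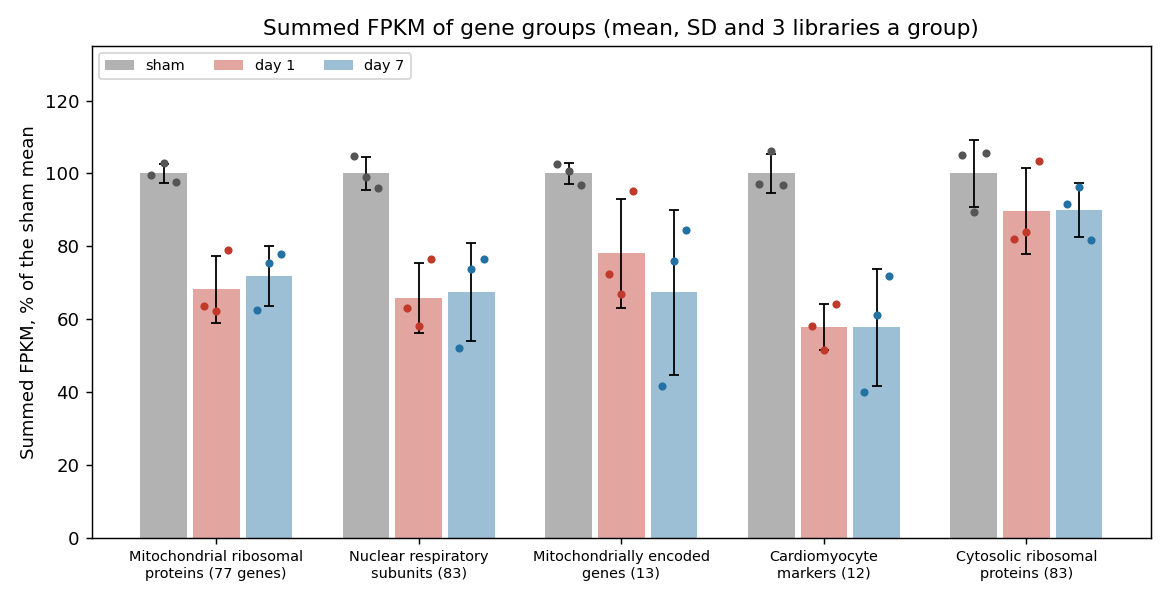
Summed FPKM of 5 gene groups as a percentage of the sham mean (y axis); bars are means, error bars SD and points the 3 libraries of a group. The mitochondrial ribosomal proteins stand at 62.1% to 78.9% at day 1, and the cytosolic ribosomal proteins at 82.0% to 103%.

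Other parts of the protein-making and respiratory machinery were measured in the same libraries, and no difference between groups of genes was tested. Of 80 ribosomal proteins of the cytosol, 3 were lower at day 1 and 5 at day 7, with medians of -0.10 and -0.15. Of 81 nuclear-encoded subunits of the respiratory complexes, 49 were lower at day 1 and 45 at day 7, with medians of -0.56 and -0.52. Summed FPKM of the mitochondrial ribosomal proteins was 7.49% ± 0.35 of that of the respiratory subunits in sham, 7.75% ± 0.23 at day 1 and 8.07% ± 0.79 at day 7 (SD, n = 3). Against the cytosolic ribosomal proteins it was 8.86% ± 1.09, 6.68% ± 0.16 and 7.08% ± 1.19. Both are ratios of sums and no test was run on them. The 13 protein genes of the mitochondrial genome had medians of -0.51 and -0.55, with 0 called lower at day 1 (2 had an unadjusted p under 0.05) and 1 at day 7.

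Markers of some cell types moved over the same libraries. The 12 cardiomyocyte markers summed to 37581 to 41155 FPKM in the sham libraries, 19986 to 24911 at day 1 and 15545 to 27881 at day 7, and none was at 0. Of these, 6 were lower at day 1 and 7 at day 7, with medians of -0.71 and -0.74. The sum of the mitochondrial ribosomal proteins was 10.6% ± 0.31 of the cardiomyocyte marker sum in sham, 12.5% ± 0.74 at day 1 and 13.7% ± 2.60 at day 7. Neutrophil markers were higher at day 1 (6 of 6; 47.2 to 64.5 FPKM in the sham libraries, 118 to 315 at day 1), and fibroblast markers in 4 of 6 at each time (1066 to 1348 FPKM in the sham libraries, 4346 to 6108 at day 7). Monocyte and macrophage markers were higher in 5 of 8 at day 1 and 4 of 8 at day 7, markers of dividing cells in 4 of 4 at each time, and erythroid markers in 1 of 3 and 3 of 3. Markers of endothelial cells, T and B cells, adipocytes and skeletal muscle were not called at either time. Of 5 smooth muscle and pericyte markers 1 was higher at day 7. Adipocyte markers summed to 472, 4.72 and 2.31 FPKM in the sham libraries, and skeletal muscle markers to 682, 2252 and 2252. The part of these markers in the fall of the members was not tested.

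Atrial markers differed between libraries of the same group. The 5 genes (Myl7, Myl4, Sln, Nppa and Bmp10) summed to 2677, 1446 and 229 FPKM in the sham libraries, 11057, 4361 and 282 at day 1 and 5405, 775 and 1398 at day 7. None of the 5 was called at either time. The 3 infarct libraries with the highest sums, day 1 replicates 1 and 2 and day 7 replicate 1, were those in which the median member was lowest. In the other 3 infarct libraries 72, 74 and 74 of the 77 members lay below the sham mean. The same count was 43, 18 and 59 in sham replicates 1, 2 and 3, and the share of all genes is not given here. The part of atrial tissue in the fall was not tested. Without the 4 libraries of the highest atrial sums, a choice made after seeing the data, 1 member was lower at day 1 and 14 at day 7, beside 0.63% and 4.58% of all genes. Their median log2 fold changes were then -0.32 and -0.39. That fit leaves 1 day 1 library, which is assumed to vary like the other groups.

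The largest falls at day 1 were in Mrps18a, Mrpl27, Mrps35, Mrpl18, Mrpl47 and Mrps33. Mrps18a, an S18 homologue that sits in the large subunit, was at 67.4, 76.5 and 63.3 FPKM in the sham libraries and 33.2, 34.6 and 44.9 FPKM at day 1. Its libraries did not overlap, and its log2 fold change was -0.87 ± 0.14 (SE, adjusted p = 0.00543). At day 7 it was at 38.6, 44.6 and 50.2 FPKM, a change of -0.63 (adjusted p = 0.0139).

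Mrpl27, whose bacterial counterpart reaches toward the peptidyl transferase centre, was at 61.9, 64.3 and 51.7 FPKM in the sham libraries, 29.7, 31.1 and 36.5 at day 1 and 30.7, 37.1 and 33.9 at day 7. Both infarct groups lay wholly below sham, by -0.85 ± 0.12 (adjusted p = 0.00354) and -0.79 ± 0.12 (adjusted p = 0.00454). It led the falls at day 7. Mrpl27 overlaps Eme1 on the opposite strand, and reads of overlapping genes cannot be told apart where counting by strand is not stated.

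Mrpl18 was at 89.9, 85.6 and 77.4 FPKM in the sham libraries, 46.1, 43.6 and 49.5 at day 1 and 40.5, 53.5 and 57.7 at day 7. It fell by 0.85 and 0.74 on the log2 scale (adjusted p = 0.00494 and 0.00741), with no overlap of the groups at either time. Mrpl47, the homologue of bacterial L29 near the exit tunnel, was at 10.7, 12.7 and 10.49 FPKM in the sham libraries, 5.60, 5.19 and 6.82 at day 1 and 5.04, 6.74 and 6.73 at day 7. It fell by 0.85 and 0.79 (adjusted p = 0.00472 and 0.00596), again without overlap. Mrpl18 overlaps Tcp1, and Mrpl47 overlaps Actl6a and Ndufb5, on the opposite strand.

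Mrps33, a subunit with no bacterial homologue, was at 97.1, 93.3 and 92.3 FPKM in the sham libraries, 47.9, 51.8 and 59.6 at day 1 and 57.5, 60.1 and 64.9 at day 7. Its change was -0.82 ± 0.10 (adjusted p = 0.00233) and -0.62 ± 0.10 (adjusted p = 0.00493). Mrps35 differed from these in its spread: it was at 13.2, 19.5 and 18.6 FPKM in the sham libraries, 11.5, 9.13 and 6.75 at day 1 and 8.14, 12.4 and 15.6 at day 7. Its day 1 libraries lay below sham (-0.85 ± 0.25, adjusted p = 0.037), and its day 7 libraries overlapped sham (-0.50, adjusted p = 0.157).

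At day 7 the 6 largest falls were Mrpl27, Mrpl47, Mrpl15, Mrpl1, Mrpl18 and Mrpl39. Mrpl15 was at 30.2, 31.1 and 27.3 FPKM in the sham libraries, 20.4, 17.0 and 21.0 at day 1 and 14.0, 16.8 and 19.8 at day 7, a change of -0.58 (adjusted p = 0.0151) and -0.78 (adjusted p = 0.00595). Mrpl1, the protein of the L1 stalk beside the exit site for transfer RNA, was at 18.8, 20.3 and 18.7 FPKM in the sham libraries, 11.5, 12.1 and 14.7 at day 1 and 9.15, 12 and 11.9 at day 7. Its changes were -0.57 (adjusted p = 0.0127) and -0.76 (adjusted p = 0.00503). Mrpl39 was at 22.8, 24.4 and 23.98 FPKM in the sham libraries, 16.1, 14.5 and 17.3 at day 1 and 11.98, 14.5 and 16.3 at day 7, with changes of -0.54 (adjusted p = 0.0112) and -0.71 (adjusted p = 0.00504). For these 3 genes no infarct library reached the lowest sham library, and the day 7 means were below those of day 1 by less than the test could call (adjusted p = 0.401, 0.372 and 0.439).

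**Figure D3:**
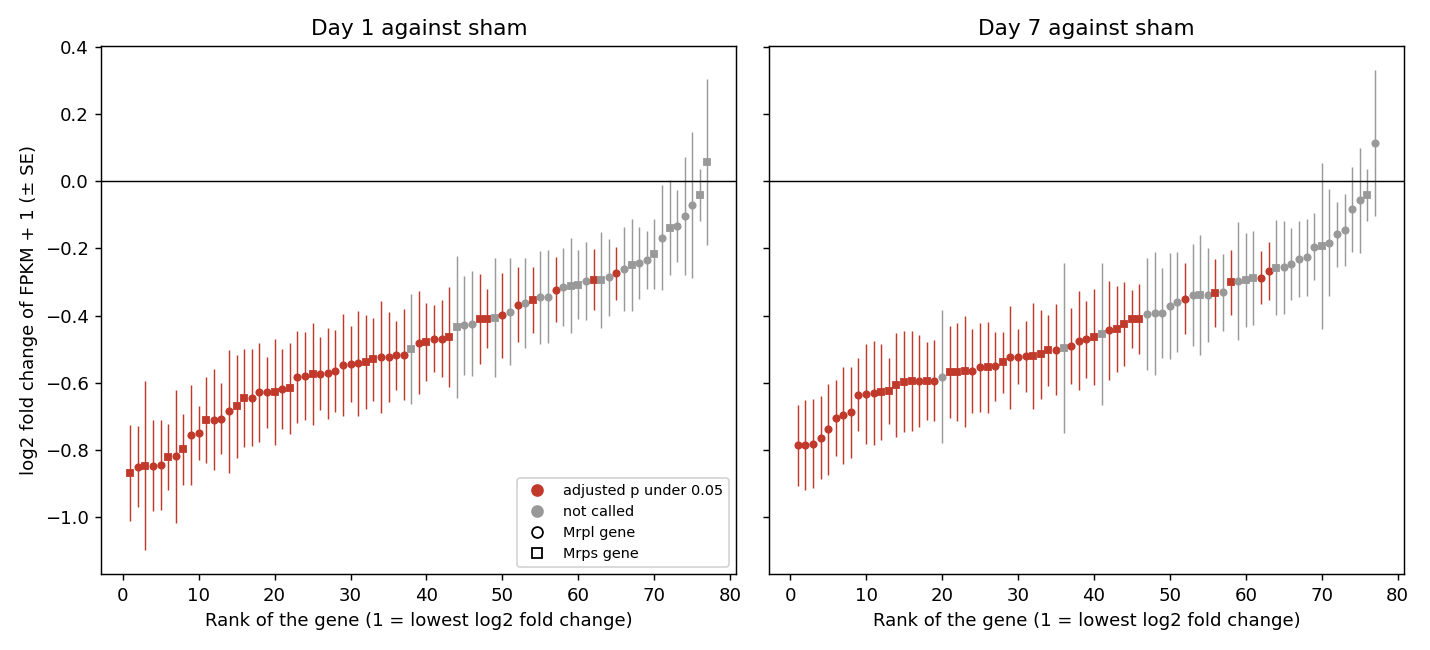
Log2 fold change of FPKM + 1 with its SE (y axis) for the 77 genes ranked from the lowest (x axis), at day 1 and at day 7; squares are Mrps and circles Mrpl genes, and red marks an adjusted p under 0.05. The values run from -0.87 to 0.06 at day 1 and from -0.79 to 0.11 at day 7, with 1 gene above 0 in each panel.

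By subunit and origin the members fall into 4 classes, and no difference between classes was tested. Among members with a bacterial homologue in the small subunit, 9 of 16 were lower at day 1 and 11 of 16 at day 7 (medians -0.41 and -0.42). Mrps21, Mrps16, Mrps15, Mrps18c, Mrps14, Mrps10, Mrps7 and Mrps12, the last a protein of the decoding centre, were lower at both times. Among the mitochondria-specific proteins of the small subunit, 7 of 10 were lower at each time (medians -0.61 and -0.48), and Mrps23, Mrps33, Mrps34, Mrps31, Mrps22 and Mrps26 were lower at both. In the large subunit, 21 of 29 members with a bacterial homologue were lower at day 1 and 17 of 29 at day 7 (medians -0.52 and -0.47). The 16 lower at both times included Mrpl10 and Mrpl12 of the stalk that recruits translation factors, Mrpl23 at the exit tunnel and Mrpl32, which the protease Afg3l2 helps to mature. Of the 21 mitochondria-specific proteins of the large subunit, 12 were lower at each time (medians -0.47 and -0.49), among them Mrpl45, which faces the inner membrane, at both. Mrps36, which current structures place in the 2-oxoglutarate dehydrogenase complex and not in the ribosome, was lower at both times (-0.63 and -0.52, adjusted p = 0.021 and 0.0353).

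Member levels ran from a mean of 4.84 FPKM for Mrpl19 to 288 FPKM for Mrpl42, and the 5 highest (Mrpl42, Mrps21, Mrpl33, Mrpl30 and Mrpl52) held 32.4% of the members' FPKM in the sham libraries. Mrpl42 was at 396, 403 and 354 FPKM in the sham libraries, 206, 191 and 260 at day 1 and 188, 296 and 301 at day 7, so both infarct groups lay below sham. It was lower at day 1 (-0.82, adjusted p = 0.018) and at day 7 had an adjusted p of 0.0509 (-0.58). Mrps21 was at 291, 290 and 269 FPKM in the sham libraries, 196, 183 and 240 at day 1 and 156, 194 and 216 at day 7, and was lower at both (-0.46 and -0.60, adjusted p = 0.0478 and 0.019). Mrpl30 was at 258, 241 and 244 FPKM in the sham libraries, 141, 132 and 184 at day 1 and 136, 178 and 166 at day 7, and was lower at both (-0.71 and -0.63, adjusted p = 0.0115 and 0.0158). All 9 values of each of these 3 genes put every infarct library below every sham library. Mrpl33 was at 245, 299 and 296 FPKM in the sham libraries, 146, 151 and 234 at day 1 and 225, 211 and 200 at day 7, and was lower at day 1 (-0.69, adjusted p = 0.0254) with -0.39 at day 7 (adjusted p = 0.128). It shares exon sequence with Gm43809 on the same strand.

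By level, 22 of the 26 highest members were lower at day 1, 14 of the 26 in the middle and 14 of the 25 lowest, with medians of -0.62, -0.42 and -0.31. With a pseudocount of 0.1 those medians were -0.63, -0.44 and -0.33. At day 7 the medians were -0.52, -0.43 and -0.46. Members have short transcripts, with a median length of 1134 bases for the most expressed transcript beside 2781 bases over tested genes (lengths from GENCODE M21, found for 91.8% of tested genes). The 38 shorter and the 39 longer members had day 1 medians of -0.50 and -0.47. The 1526 tested protein-coding genes no longer than the members' median had a day 1 median of -0.14, and 25.95% of them were lower.

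Of the 3 members with the lowest levels, Mrps26 was at 8.64, 8.33 and 7.64 FPKM in the sham libraries, 6.26, 5.47 and 6.93 at day 1 and 5.91, 6.88 and 6.64 at day 7. It was lower at both times (-0.35 and -0.30, adjusted p = 0.0279 and 0.0435). Mrpl19 was at 5.13, 5.97 and 5.51 FPKM in the sham libraries, 4.68, 4.24 and 4.76 at day 1 and 4.21, 4.22 and 4.86 at day 7, with all infarct libraries below sham. Its change was called at day 7 (-0.27, adjusted p = 0.0436) and not at day 1 (-0.23, adjusted p = 0.0756). With TPM the day 7 values of Mrps26 and Mrpl19 turned to 0.0153 and 0.0315, and neither was called. Mrpl57 was at 8.85, 9.46 and 7.14 FPKM in the sham libraries, 6.16, 6.52 and 7.58 at day 1 and 6.48, 7.33 and 7.32 at day 7, and overlapped sham at both times (adjusted p = 0.0923 and 0.147). Mrpl19 and Mrps26, with means of 4.84 and 6.97 FPKM over all libraries, are also the members nearest to the minimum of 1 FPKM on which the choice of genes rested, and no member lay below it.

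A few members stood apart from the common fall. Those named here were singled out after their values were seen. Others that overlapped sham at both times, such as Mrpl28 (-0.17 and -0.06) and Mrpl16 (-0.13 and -0.25), were not. Mrps25 was at 9.55, 9.79 and 8.84 FPKM in the sham libraries, 9.35, 9.27 and 8.71 at day 1 and 8.43, 9.75 and 9.13 at day 7. The groups overlapped, and the change was -0.04 ± 0.08 at each time (adjusted p = 0.737 and 0.703). Mrps25 overlaps Nr2c2 on the opposite strand.

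Mrps6 was at 32.9, 24.8 and 22.4 FPKM in the sham libraries, 39.6, 25.9 and 20.1 at day 1 and 28.4, 19.8 and 21.4 at day 7. It was the 1 member with a positive fold change at day 1 (0.06 ± 0.25, adjusted p = 0.887), and the groups overlapped. Mrps6 shares its strand and exon sequence with Slc5a3, a myo-inositol transporter gene, so its value is uncertain. Mrpl17 was at 13.8, 13.2 and 17.97 FPKM in the sham libraries, 12.7, 10.6 and 20.7 at day 1 and 15.5, 15.2 and 17.9 at day 7, with 0.11 ± 0.22 at day 7 (adjusted p = 0.712), the 1 positive value at that time. Mrpl52 was at 128, 134 and 161 FPKM in the sham libraries, 124, 105 and 170 at day 1 and 122, 107 and 114 at day 7, and was not called (-0.10 and -0.30, adjusted p = 0.692 and 0.216). Its day 7 libraries all lay below sham.

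**Figure D4:**
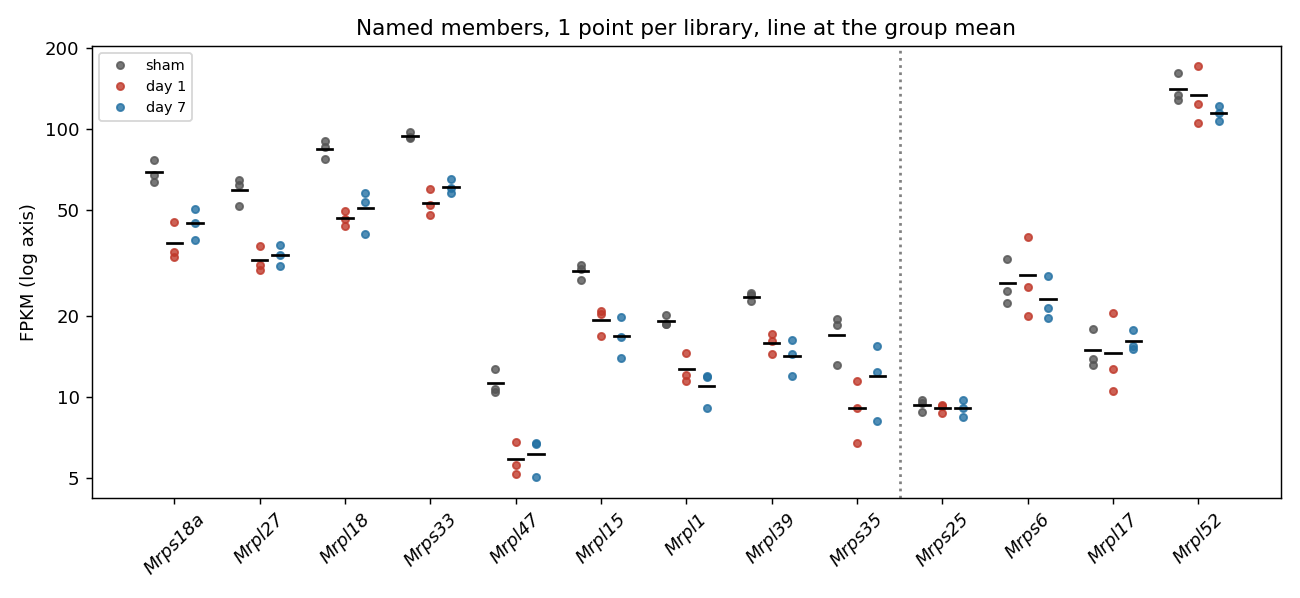
FPKM on a log axis (y axis) of 13 members (x axis) in each library, coloured by group, with a line at the group mean. Left of the dotted line are the members with the largest falls at either time, whose infarct libraries lie below sham except Mrps35 at day 7. Right of it are members named as standing apart, whose groups overlap in all but the day 7 libraries of Mrpl52.

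The members tracked each other from library to library. The Pearson correlation of a member with the mean of the others, over 9 libraries that share their scaling and composition, had a median of 0.93, and 45 of 77 members reached 0.9. After the group means were removed the median was 0.87. Mrps6 (-0.21), Mrpl17 (0.21), Mrps5 (0.32), Mrps25 (0.39) and Mrpl52 (0.47) had the lowest values, the 5 members under 0.5. With each library centred on the members' own median, an alternative added after the data were seen, 12 members were lower and 1 higher at day 1 and 8 lower and 1 higher at day 7. These calls compare members with each other, and the share of all genes called in that fit is not given here. Mrps25 was the 1 higher at day 1 (0.38, adjusted p = 0.0443) and Mrpl28 at day 7 (0.33, adjusted p = 0.0399). Mrpl27, Mrpl18 and Mrpl47 were lower than the median member at both times.

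Members with and without a motif were set side by side as a description. At day 1 the median was -0.45 in the 16 members with an NRF1 match and -0.53 in the 52 without one, and -0.52 and -0.50 with and without an ETS match (25 and 43 members). It was -0.47 in the 8 members with a YY1 match (Mrpl35, Mrpl36, Mrpl37, Mrpl42, Mrps11, Mrps18a, Mrps24 and Mrps27) and -0.51 in the others. Of the 77 members, 18 (23.4%) start within 1000 bases of a protein-coding gene that is transcribed the other way, beside 9.94% of tested protein-coding genes. Of the 16 such neighbours that were tested and are no members, 5 were lower and 1 higher at day 1, with a median of -0.13, while the members beside them had a median of -0.48. The start of Mrpl30 lies 66 bases from that of Mitd1, which was the 1 neighbour that was higher at day 1 (0.69, adjusted p = 0.0258), while Mrpl30 was lower.

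Mitochondrial ribosomal proteins with other names moved likewise in part. Ptcd3, a pentatricopeptide repeat protein of the small subunit, was at 46.0, 48.1 and 44.96 FPKM in the sham libraries, 26, 27.5 and 32.6 at day 1 and 21.6, 31.8 and 34.3 at day 7, and was lower at both times (-0.68 and -0.67, adjusted p = 0.0184 and 0.0173). Chchd1 was lower at both times (-0.67 and -0.66, adjusted p = 0.0135 and 0.0131), Aurkaip1 at day 1 (-0.45, adjusted p = 0.0228; -0.34 and 0.0512 at day 7) and Gadd45gip1 at day 7 (-0.31, adjusted p = 0.0382; -0.20 and 0.15 at day 1). Dap3, the GTP-binding protein of the small subunit, was not called (-0.13 and -0.22, adjusted p = 0.499 and 0.219). The gene of Mrpl58, a release factor built into the large subunit that the file lists as Ict1, was lower at both times (-0.39 and -0.46, adjusted p = 0.0335 and 0.0183).

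Genes that build and serve the mitochondrial ribosome were lower or not called, and none was higher. Of 29 assembly factors, 11 were lower at day 1 and 12 at day 7 (medians -0.25 and -0.24). The GTPases Mtg1 (-0.59 and -0.58, adjusted p = 0.00438 and 0.0048) and Mtg2 (-0.44 and -0.60, adjusted p = 0.00724 and 0.00289), the RNA-binding protein Fastkd2 (-0.63 and -0.52, adjusted p = 0.00922 and 0.016) and the protease Afg3l2 (-0.55 and -0.52, adjusted p = 0.0268 and 0.0301) were lower at both times. C1qbp was lower at day 7 (-0.58, adjusted p = 0.0354).

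Of 17 translation factors and messenger RNA-binding proteins, 11 and 12 were lower (medians -0.45 and -0.51). Slirp, which with Lrpprc keeps mitochondrial messenger RNA stable, was at 111, 88.6 and 88.8 FPKM in the sham libraries, 50.3, 55.04 and 65.7 at day 1 and 37.9, 47.3 and 49.4 at day 7. It fell by 0.74 and 1.08 on the log2 scale (adjusted p = 0.00941 and 0.00302), and Lrpprc by 0.68 and 0.70 (adjusted p = 0.0292 and 0.0242). The deformylase Pdf (-0.76, adjusted p = 0.00386) and the release factor Mtrf1 (-0.69, adjusted p = 0.00689) were among the falls at day 1, and the ribosome recycling factor Gfm2 at day 7 (-0.64, adjusted p = 0.01).

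Of 22 genes for charging mitochondrial transfer RNA, 8 and 7 were lower (medians -0.27 and -0.23). Qrsl1 (-0.68 and -0.65, adjusted p = 0.00842 and 0.00928) and Gatb (-0.55 and -0.69, adjusted p = 0.0154 and 0.00718), of the enzyme that makes glutaminyl-tRNA, were lower at both times. So were Rars2 (-0.48 and -0.56, adjusted p = 0.0145 and 0.00875) and Kars, which also serves the cytosol (-0.35 and -0.68, adjusted p = 0.0314 and 0.004). Of 18 genes for mitochondrial DNA and RNA synthesis and processing, 8 and 10 were lower (medians -0.40 and -0.45). Examples were Hsd17b10, a subunit of mitochondrial RNase P (-0.70 and -0.92, adjusted p = 0.0215 and 0.00882), Mterf2 (-0.83 and -0.80, adjusted p = 0.0114 and 0.012), the elongation factor Tefm (-0.80 and -0.57, adjusted p = 0.00409 and 0.0108) and the DNA-packaging transcription factor Tfam (-0.53 and -0.74, adjusted p = 0.0141 and 0.00483).

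Among 9 nuclear regulators of such genes, Ppargc1a changed most. It was at 56.4, 46.0 and 66.2 FPKM in the sham libraries, 30.0, 25.3 and 22.6 at day 1 and 8.06, 19.3 and 22.9 at day 7, with no overlap. Its log2 fold change was -1.08 ± 0.33 at day 1 (adjusted p = 0.0387) and -1.79 ± 0.33 at day 7 (adjusted p = 0.00729) and its lowest library was day 7 replicate 1. The day 1 call of Ppargc1a was lost in 14 of 26 alternatives and the day 7 call in 0. Esrra was lower at both times (-0.61 and -0.41, adjusted p = 0.00993 and 0.0336) and the coactivator Ppargc1b at day 1 (-0.82, adjusted p = 0.0112; -0.43 and 0.0858 at day 7). Myc was at 4.83, 4.83 and 4.43 FPKM in the sham libraries and 7.04, 8.06 and 13.9 at day 1, and was higher then (0.85, adjusted p = 0.0168; 0.36 and 0.195 at day 7). Nrf1, Gabpa, Gabpb1 and Yy1, the genes listed here for the NRF1, ETS and YY1 motifs, were not called. The log2 fold change of Nrf1 was 0.16 at each time (adjusted p = 0.301 and 0.277) and of Gabpa -0.16 and -0.28 (adjusted p = 0.28 and 0.0746). That of Gabpb1 was 0.22 and 0.21 (adjusted p = 0.0618 and 0.0666) and of Yy1 0.07 and -0.05 (adjusted p = 0.595 and 0.649). Pprc1 was at 0.34 and 0.02 (adjusted p = 0.0538 and 0.927).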

How the data were processed

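TRIzol and the VAHTS Universal V6 kit were used for RNA and libraries, per the labels' protocols. HISAT2 2.1.0, HTSeq 0.11.2, FastQC 0.11.9 and GRCm39 are named in the submitters' processing notes. The deposited values are FPKM that the authors gave per transcript (55361 transcripts). Not given in the sources used here are the annotation release, the strand setting and the tool that divided reads among transcripts. Depth is unknown, since 11.8% of positive values were under 1e-06.

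FPKM was summed per gene, and genes with a mean of 1 FPKM or more were tested. The 77 members have 145 transcripts, and 45 have 1. The limma package (3.58.1, R 4.3.3) was fitted to log2(FPKM + 1) over 9 libraries, with 1 mean per group and a variance trend, and p-values were Benjamini-Hochberg adjusted over 13514 genes. The fit was tested on simulated data. GENCODE M21 (GRCm38) served for overlaps, neighbours and transcript lengths. Of 257 list entries, 251 matched the file. Of the members, 32 overlap an exon of another gene and 3 have named pseudogenes (Mrpl23, Mrpl48 and Mrps36), so reads may be shared.

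Named were, per comparison, the 6 largest called rises and falls, the 5 highest and 3 lowest members, those nearest to 1 FPKM, the 5 ribosomal proteins with other symbols, 9 regulators and up to 3 called genes per direction and list. Members, lists and the rule were chosen with earlier results of these data known. Alternatives changed the pseudocount, minimum, scaling, fit, transcript choice and libraries. Mitochondrial ribosomal RNAs were not analysed here.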

Additional observations from a re-analysis of the deposited data

Results flagged for a closer look

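Pnpt1, the polynucleotide phosphorylase of mitochondria, was taken up because it differed between the 2 times after infarction by the test of that difference itself. It was at 15.9, 18.7 and 16.3 FPKM in the sham libraries, 13.5, 16.3 and 14.5 at day 1 and 8.77, 10.53 and 10.7 at day 7. All 3 day 7 libraries lay below those of day 1, a log2 difference of -0.52 ± 0.11 (SE, limma's adjusted p = 0.0348). Against sham it was not called at day 1 (-0.19, adjusted p = 0.22) and was lower at day 7 (-0.71, adjusted p = 0.00443). The difference between the times lost its call in 14 of 26 alternatives, with adjusted p from 0.0251 to 0.193 and log2 differences from -0.58 to -0.41.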

How the results depend on the processing

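The count of members lower at day 1 (50) fell to 19 with TPM and to 28 with TPM without the mitochondrially encoded genes. The share of all genes lower fell from 14.7% to 4.43% and 6.62%. At day 7 the count (48) fell to 9 and 29, and the share of all genes from 17.3% to 3.89% and 7.74%. Between day 7 and day 1, library weights called 3 members higher, beside 584 of the 13514 genes tested. Other settings outside the leave-outs called 0 members higher. The cause of these changes was not tested. The gap between the members' median and that of all genes ran from -0.56 to -0.30 at day 1 and from -0.52 to -0.31 at day 7 over the 27 settings. The members called lower in all of these settings numbered 0 at day 1 and 8 at day 7. Calls of named genes were also lost in part of 26 alternatives, for example Mrps21 at day 1 in 15, Mrps35 at day 1 in 10 and Esrra at day 7 in 11. With TPM, 2385 genes were higher and 598 lower at day 1, and 3757 and 526 at day 7. Without the 4 libraries of the highest atrial marker sums, 1 member was lower at day 1 and 14 at day 7. With libraries left out singly or as a pair, members lower ran from 2 to 66 at day 1, beside 1.06% and 19.4% of all genes in those fits. At day 7 they ran from 17 to 53, beside 7.84% and 19.4%. The 66 came from leaving out day 1 replicate 3 and day 7 replicate 1, a pair chosen after the data were seen. Single leave-outs reached 57 at day 1, beside 17.1% of all genes. Members higher between the times ran from 0 to 3, beside 32 to 272 of all genes tested in the leave-out fits. Relative to the members' median, leave-outs and the pseudocount gave 0 to 3 higher and 0 to 18 lower at day 1, and 0 to 3 higher and 0 to 8 lower at day 7. The share of all genes in those fits is not given here. Some named genes turned sign, among them Mrps26 and Mrpl19, which were called at day 7. With TPM these were, at day 1, Mrpl52 (0.17), Mrps25 (0.21), Mrpl17 (0.19), Dap3 (0.14) and Gadd45gip1 (0.0293), and, at day 7, Mrpl52 (0.0595), Mrpl57 (0.0869), Mrps26 (0.0153), Mrpl19 (0.0315), Mrps25 (0.28), Mrps6 (0.15), Dap3 (0.13) and Aurkaip1 (0.0094). With TPM without the mitochondrially encoded genes they were Mrpl52 (0.12), Mrps25 (0.16), Mrpl17 (0.14) and Dap3 (0.091) at day 1 and Mrps25 (0.16) and Mrps6 (0.0251) at day 7. Quantile normalisation gave Mrpl52 0.052 at day 1 and library weights gave Mrps25 0.0016 at day 7. Without the 4 atrial-marker libraries Mrpl52 was at 0.21, Mrpl17 at 0.40, Mrps6 at -0.22 and Dap3 at 0.0172 at day 1 and Mrps25 at 0.0185 at day 7. Other leave-outs ranged from -0.30 to 0.0498 for Mrpl52, -0.20 to 0.27 for Mrps6 and -0.33 to 0.12 for Mrpl17 at day 1, and from -0.0875 to 0.00703 for Mrps25 at day 7. A replicate block gave 44 members lower at day 1 and 43 at day 7, beside 11.8% and 14% of all genes, and 0 between the times. Same-numbered libraries of different groups correlated at -0.37 to 0.27, and libraries of different numbers at -0.53 to 0.40. The labels do not say what a number shares, and whether numbers pair the libraries was not tested. Depth could not be recovered, so counting error behind low values is unknown.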
